A study of Mus musculus with 12 samples.

Results

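MiR-206 and miR-133b are muscle miRNAs encoded by neighbouring hairpins of the lncRNA gene Lincmd1. Here both arms of each hairpin were followed in the quadriceps through postnatal growth. The members were chosen by name, as the rows of the count table for mmu-miR-206-3p, mmu-miR-206-5p, mmu-miR-133b-3p and mmu-miR-133b-5p (the prefix is left out below), which are 4 of the 1966 mature miRNAs listed. All 4 passed the filter on low counts and are among the 809 miRNAs tested. Small RNA was sequenced from wild-type C57BL/6J mice of 4 ages named by the postnatal day (P1, P5, P14, P90), with 3 libraries per age and no treatment or altered allele in any group. The methods of the study give 3 mice for each time point. Whole muscle was used, so the values average over myofibers of all types, satellite cells, vessels, nerve and connective tissue.

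A miRNA hairpin can give rise to 2 mature arms, of which the more abundant one is the guide and the other the passenger. The guide of both hairpins is the 3p arm. The bases at positions 2 to 8, the seed, take the leading part in target recognition. MiR-206 is restricted to skeletal muscle, belongs to the same seed family as miR-1, and is known from myoblast differentiation, from the developing and regenerating muscle and from the neuromuscular junction. MiR-133b is nearly identical to miR-133a, the partner of miR-1 in its clusters. Transcription of the locus is known to be driven by myogenic factors such as MyoD, and the host transcript linc-MD1 is known as a sponge for miR-133 and miR-135 in differentiating myoblasts.

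The mature sequences, taken from RefSeq (GRCm38.p6), are shown because the seed sets each arm apart from the others. The capitals mark the seed.

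miR-206-3p: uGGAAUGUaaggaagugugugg

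miR-206-5p: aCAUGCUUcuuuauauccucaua

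miR-133b-3p: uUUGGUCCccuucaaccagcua

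miR-133b-5p: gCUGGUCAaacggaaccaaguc

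The hairpins are shown with both mature arms in capitals, as the results turn on how the arms of one hairpin compare. Mir206 lies at chr1:20679010-20679082 and Mir133b at chr1:20682769-20682887 (GRCm38.p6, plus strand).

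Mir206: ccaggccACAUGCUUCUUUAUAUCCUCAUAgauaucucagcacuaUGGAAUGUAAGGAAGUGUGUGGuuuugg

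Mir133b: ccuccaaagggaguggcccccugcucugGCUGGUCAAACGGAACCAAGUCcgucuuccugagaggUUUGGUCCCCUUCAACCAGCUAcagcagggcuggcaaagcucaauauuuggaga

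The hairpins are separated by 3686 bases, and no other hairpin of RefSeq lies within 100000 bases on either side. Both lie inside the RefSeq gene Lincmd1 (chr1:20669882-20682958). In the GENCODE vM39 annotation, which belongs to a later build and was used for exon structure only, the miR-133b hairpin is in exon 3 of the spliced transcript Lincmd1-202, whereas the miR-206 hairpin is in its intron 2. The unspliced transcript Lincmd1-201 contains the miR-133b hairpin and begins 13 bases inside that of miR-206. Among 1675 miRNAs of the table with a RefSeq sequence, miR-206-3p shares its seed with miR-6349 and miR-6382, which had 0 and at most 2 counts per library, and no listed miRNA shares the seed of the other 3 arms. MiR-1a-3p and miR-133a-3p are not among those sequences and are treated as seed relatives on the basis of general knowledge.

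Library totals ranged from 20363495 to 33771032 counts at P1, P5 and P14 and from 43776307 to 53126984 at P90. The TMM factors, which rescale libraries on the assumption that most miRNAs do not change, were between 1.235 and 1.725 at P1, P5 and P14 but between 0.247 and 0.384 at P90. MiR-1a-3p, the defining miRNA of striated muscle, was the most abundant one in all 12 libraries and took 16.0 to 30.8% of the counts at the younger ages and 53.0 to 56.8% at P90. The entry miR-1b-5p also enters the totals, and it correlated with miR-206-3p as miR-1a-3p did (r = -0.953 for both). Whether reads were counted under both entries was not tested. Without these entries in the totals, the mean P90 share of miR-206-3p was 0.236% instead of 0.0413%. Levels below are therefore given both as normalized CPM (counts scaled to the TMM library size) and as a share of the deposited counts, and ratios within a library are used where the scaling matters. In the tests an adjusted P value (Padj) under 0.05 was taken as a difference. Across the 4 ages, 72.4% of the miRNAs tested differed by this rule, and so did all 4 arms (edgeR Padj = 2.47e-11 for miR-206-3p, 3.68e-08 for miR-206-5p, 0.00285 for miR-133b-3p and 0.000205 for miR-133b-5p). A call of any difference is thus common in these data, and the size and timing of each change are described next.

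MiR-206-3p showed no called change up to P14 and fell from one of the most abundant miRNAs to a moderate level in adults. The 3 P1 libraries had 16888, 17138 and 18918 normalized CPM. The P5 libraries had 21640, 17376 and 17900, the P14 libraries 17693, 19321 and 21217, and the P90 libraries 1049, 1303 and 1513. The libraries of P1, P5 and P14 overlap, and all 9 of them lie far above the 3 adult libraries. Of the deposited counts the arm held 2.47 to 2.97% in newborn libraries, 2.15 to 2.76% on day 5 and 2.67 to 3.33% on day 14, against 0.0374 to 0.0463% in adults. By count it ranked between 3 and 7 among all miRNAs in every library up to P14 and between 48 and 53 at P90.

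**Figure D1:**
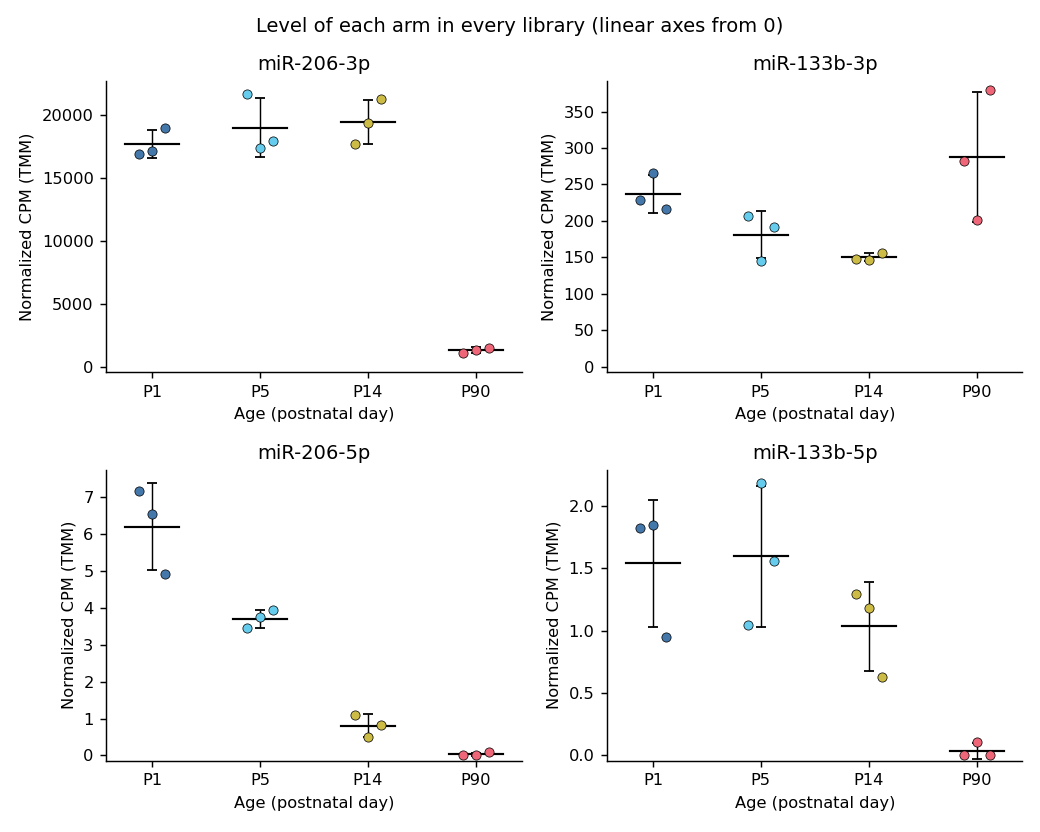
Normalized CPM (TMM) of the 4 arms in every library, plotted by age on linear axes that start at 0. Points are libraries, horizontal lines are means and error bars are SD (n = 3). The 3 P90 libraries of miR-206-3p (1049 to 1513) lie below all 9 younger ones (16888 to 21640), whereas those of miR-133b-3p (201 to 380) lie above all P14 libraries (146 to 157) with this scaling, but not with library totals alone.

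The mean level of miR-206-3p went from 17648 ± 1107 CPM (P1) through 18972 ± 2325 (P5) to 19410 ± 1764 (P14), and was 1288 ± 233 in adults (SD, n = 3 per age). The neighbours P14, P5 and P1 in this order did not differ beyond their spread. The log2 fold change (log2FC) was 0.10 (standard error, SE, 0.14, edgeR Padj = 0.807) for P5 versus P1, 0.03 (SE 0.14, edgeR Padj = 0.869) for P14 versus P5 and 0.14 (SE 0.14, edgeR Padj = 0.469) for P14 versus P1. In these comparisons 4.45, 44.4 and 49.1% of the miRNAs tested differed, so miR-206-3p was one of many miRNAs that passed no test up to P14. With upper-quartile factors in place of TMM, the P14 versus P1 value was 0.45 and passed the threshold (edgeR Padj = 0.013).

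Between P14 and P90 miR-206-3p fell with a log2FC of -3.91 (SE 0.16, edgeR Padj = 6.21e-12). At this step 59.1% of the miRNAs tested differed and 36.7% were lower at P90. Of the 809 miRNAs, 127 had a lower log2FC than miR-206-3p. Compared with P5, where 63.2% of miRNAs differed and 38.3% were lower at P90, the log2FC was -3.88 (SE 0.16, edgeR Padj = 4.08e-12). Compared with P1, where 66.4% differed and 41.2% were lower, it was -3.78 (SE 0.16, edgeR Padj = 5.06e-12). In whole muscle, fewer cells of a type and less RNA per cell cannot be told apart. The fall was called under every alternative run, with a log2FC between -6.07 and -1.90 for P90 versus P1.

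With TMM scaling miR-133b-3p stayed between 145 and 380 normalized CPM, while its share of the deposited counts decreased from a mean of 0.0375% at P1 to 0.00913% at P90. Its normalized CPM were 228, 266 and 216 in the P1 libraries and 207, 145 and 191 in those of P5. They were 147, 146 and 157 in the P14 libraries and 282, 201 and 380 in the adult ones. The P1 libraries lie above all P5 and P14 libraries, the P5 libraries overlap those of P14, and the P90 libraries overlap those of P1 and P5. Means went from 237 ± 26.2 CPM (P1) over 181 ± 32.1 (P5) and 150 ± 5.67 (P14) to 288 ± 89.6 (P90). The spread was thus largest in the adults, where replicate 3 was the highest and replicate 2 the lowest.

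In the order P90, P1, P5 and P14 no neighbours passed the test, although the P1 and P5 libraries do not overlap, while ages further apart did pass. From P1 to P14 miR-133b-3p was downregulated with a log2FC of -0.66 (SE 0.20, edgeR Padj = 0.0134), in 2 steps that did not pass on their own (-0.39 with edgeR Padj = 0.378 and -0.27 with edgeR Padj = 0.314). With upper-quartile factors this decrease was -0.35 and did not pass (edgeR Padj = 0.13). From P14 to P90 the arm was upregulated with TMM scaling, though downregulated with library totals alone, with a log2FC of 0.94 (SE 0.20, edgeR Padj = 0.000903) at a step where 22.4% of miRNAs were higher at P90. For P90 versus P5 the log2FC was 0.67 (SE 0.20, edgeR Padj = 0.00892, with 24.8% of all miRNAs higher), which did not pass without P90 replicate 3 (0.45, edgeR Padj = 0.0567). For P90 versus P1 it was 0.28 (SE 0.20, edgeR Padj = 0.234), where 25.2% of all miRNAs were higher at P90. This value passed without P5 replicate 2 (0.50, edgeR Padj = 0.0308) or without P90 replicate 2 (0.45, edgeR Padj = 0.0305).

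The direction of these adult changes depended on how the libraries were scaled. As a share of deposited counts miR-133b-3p decreased between newborns (0.0334 to 0.0453%) and adults (0.00714 to 0.0108%), and with library totals alone it was downregulated for P90 versus P1 (log2FC -2.04, edgeR Padj = 2.23e-07), P90 versus P5 (-1.34) and P90 versus P14 (-1.34). In contrast, upper-quartile factors gave 2.14 for P90 versus P1 (edgeR Padj = 2.81e-08). The median log2FC of all miRNAs tested moved with it, from -2.97 with library totals to -0.72 with TMM and 1.177 with upper-quartile factors. Relative to this median, miR-133b-3p was 0.93 to 1.00 log2 units higher at P90 than at P1 under all 5 scalings, and miR-206-3p was 3.06 to 3.11 units lower. Subtracting the median removes a shift that all miRNAs share, so these narrow ranges follow from the calculation and only place the guides among the other miRNAs.

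**Figure D2:**
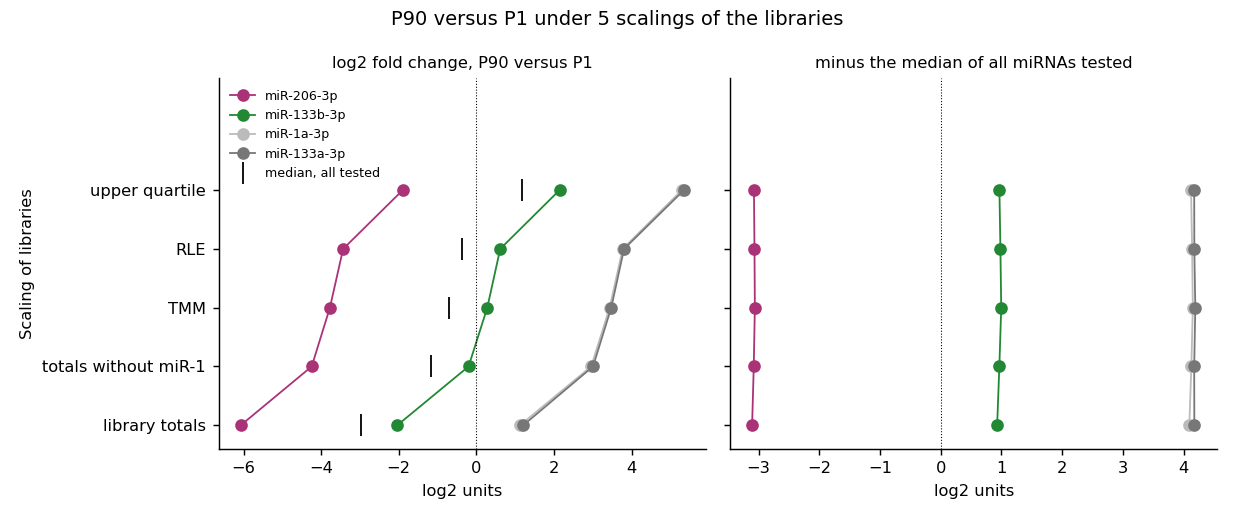
Log2FC of P90 versus P1 under 5 scalings of the libraries, as fitted (left, with the median of all miRNAs tested as a vertical mark) and after subtraction of that median (right). Each point is 1 miRNA under 1 scaling. MiR-133b-3p crosses 0 on the left (-2.04 to 2.14) and lies between 0.93 and 1.00 on the right, where the shift shared by all miRNAs is removed, while miR-206-3p is below 0 in both.

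Because a ratio of counts inside one library is free of the scaling, the guides of the locus were compared with each other. Any reads of miR-133a-3p counted as miR-133b-3p would enter this ratio, and their part was not tested. Per count of miR-133b-3p, the libraries held 74.0, 64.4 and 87.6 counts of miR-206-3p in newborn muscle, 105, 120 and 93.7 on day 5, and 120, 132 and 136 on day 14. In adult muscle the numbers were 3.72, 6.48 and 3.98. The ratio was higher in every P5 and P14 library than in any P1 library, and lower in every P90 library than in any other. On the log2 scale the means in order of age were 6.22 ± 0.22, 6.72 ± 0.18, 7.01 ± 0.09 and 2.19 ± 0.44 (SD, n = 3). The difference among the ages exceeded the replicate spread (exact permutation test over all partitions of the 12 libraries into sets of 3, p = 6.49e-05, the smallest this design can give, adjusted p = 0.000325 over 5 ratios). The geometric mean of the ratio was 28.2 times lower at P90 than at P14 and 16.3 times lower than at P1. A single pair of ages, with 3 libraries against 3, was not tested, because an exact test cannot go below 0.1 there.

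**Figure D3:**
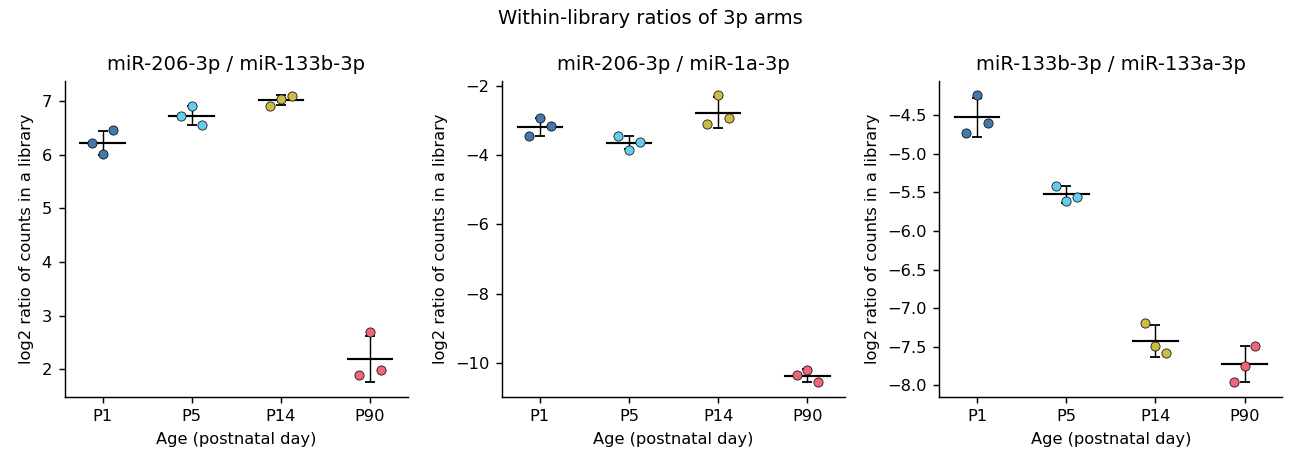
Log2 ratio of counts within each library for miR-206-3p over miR-133b-3p, miR-206-3p over miR-1a-3p and miR-133b-3p over miR-133a-3p, by age. Points are libraries, lines are means and error bars are SD (n = 3). The first ratio falls from a mean of 7.01 at P14 to 2.19 at P90, the second from -2.76 to -10.38, and the third has most of its fall before P14, from -4.52 at P1 to -7.42.

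The seed relatives were used as a second reference. MiR-1a-3p has the seed of miR-206-3p according to general knowledge. Of the summed counts of these 2 miRNAs, miR-206-3p made up 8.42 to 11.6% in the P1 libraries, 6.51 to 8.37% in the P5 libraries and 10.5 to 17.2% in the P14 libraries. In the adult libraries it made up 0.0657 to 0.0848%. The P5 libraries lie below those of P1 and P14, and the P1 and P14 libraries overlap. The log2 ratio of miR-206-3p to miR-1a-3p was, in order of age, -3.17 ± 0.26, -3.63 ± 0.20, -2.76 ± 0.44 and -10.38 ± 0.18, and differed across the ages (exact permutation test, p = 0.000325, adjusted p = 0.000541). In other words, there were 9.02 counts of miR-1a-3p for each count of miR-206-3p in newborn muscle and 1330 in adult muscle. The decrease in miR-206-3p and the increase in miR-1a-3p (log2FC 3.44 for P90 versus P1, SE 0.24) both enter this ratio.

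MiR-133b-3p was always a small part of the counts it shares with miR-133a-3p, and this part shrank with age. It made up 3.64 to 5.03% of the sum of the 2 miRNAs in the P1 libraries and 2.00 to 2.30% in those of P5. In the P14 libraries it made up 0.517 to 0.680%, and in the adult libraries 0.401 to 0.554%. Here the P1, P5 and P14 libraries are separated without overlap, while those of P14 and P90 overlap. The log2 ratio to miR-133a-3p was -4.52 ± 0.25, -5.53 ± 0.11, -7.42 ± 0.21 and -7.73 ± 0.23 at the 4 ages (exact permutation test, p = 0.000195, adjusted p = 0.000487). The ratio of miR-133b-3p to miR-133a-3p therefore decreased by a factor of 7.47 between P1 and P14 and a further factor of 1.24 up to P90. The increase in miR-133a-3p (log2FC 2.26 for P14 versus P1 with TMM, SE 0.19) and the smaller decrease in miR-133b-3p (-0.66) both enter this ratio. The time of the main decrease differs in the 2 pairs of relatives, as the miR-206-3p to miR-1a-3p ratio was 196 times lower at P90 than at P14. MiR-133a-3p and miR-133b-3p differ only in their last nucleotide, so reads that lack it cannot be assigned to one of them. How such reads were counted is not given in the sources used here, and their part in the miR-133b-3p values was not tested.

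The passenger arm miR-206-5p followed another course than its guide, as it had already declined by P14. Its counts were 271, 283 and 206 in the P1 libraries, 135, 156 and 174 in those of P5, 40, 20 and 24 in those of P14, and 0, 0 and 1 in the adult ones. No libraries of different ages overlap. In normalized CPM the means were 6.20 ± 1.17, 3.71 ± 0.24, 0.811 ± 0.305 and 0.0278 ± 0.0481. The log2FC was -0.74 for P5 versus P1 (SE 0.33, edgeR Padj = 0.288), which did not pass, and -2.19 for P14 versus P5 (SE 0.36, edgeR Padj = 0.000137). For P14 versus P1 it was -2.94 (SE 0.37, edgeR Padj = 6.88e-06). With only the P1 and P5 libraries in the fit the first step passed as well (-0.77, edgeR Padj = 0.0333). At P90 only 1 count was left in 3 libraries, so the size of the adult change is poorly known. The pooled P1 level was 294 times the P90 level with TMM (95% exact interval from counting error 52.7 to 11640), and the difference was called (edgeR Padj = 1.33e-08). In this comparison 41.2% of the miRNAs tested were lower at P90. MiR-206-5p passed the filter on low counts only through the younger ages, so the filter favoured a fall at P90.

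The balance of the miR-206 arms thus changed over ages at which the guide showed no called change. Pooled over the libraries of an age, miR-206-5p had 3.49 counts in 10000 counts of both arms in newborns (95% exact interval 3.25 to 3.75) and 1.97 on day 5 (1.79 to 2.15). On day 14 it had 0.413 (0.329 to 0.511), and in adults 0.166 (0.00419 to 0.923). The log2 ratio of the 2 arms, computed with 0.5 added to each count, was, in order of age, -11.49 ± 0.37, -12.31 ± 0.26, -14.59 ± 0.63 and -14.75 ± 1.06 (exact permutation test, p = 0.00247, adjusted p = 0.00308). The P90 minus P1 difference of -3.26 rests on 1 count at P90 and became -2.46 with a pseudocount of 1 and -3.86 without P90 replicate 3. Between P1 and P14 the 5p arm lost a factor of 8.60 relative to the 3p arm. Among 250 hairpins with both arms tested, 3 had a lower value than miR-206 for the log2FC of the 5p arm minus that of the 3p arm in this comparison (-3.07, median of all hairpins 0.17).

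One property of the libraries, the trend of levels with GC content, moved with this result. As it changed with age, a technical and a biological source of it cannot be told apart. MiR-206-5p has a GC content of 30.4% and miR-206-3p of 45.5%, and in the P14 libraries levels rose with GC content, by 0.365, 0.549 and 0.368 log2 units per 10 GC points, compared with -0.041 to 0.052 at P1 and P5 and -0.541 to -0.32 at P90. With this trend removed, the P14 versus P1 log2FC was -2.26 for miR-206-5p (edgeR Padj = 5.27e-05) and 0.23 for miR-206-3p (edgeR Padj = 0.204), and no call on a member changed at any age.

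MiR-133b-5p showed no called change up to P14 and was nearly lost in adults. Its counts were 69, 80 and 40 in the P1 libraries, 41, 91 and 69 in those of P5, 47, 48 and 18 in those of P14, and 0, 2 and 0 in the adult ones. The libraries of the first 3 ages overlap, and all of them lie above those of P90. Normalized means were 1.54 ± 0.51, 1.60 ± 0.57, 1.04 ± 0.36 and 0.0353 ± 0.0612 CPM. The log2FC between the younger ages were 0.05 for P5 versus P1 (edgeR Padj = 0.991), -0.62 for P14 versus P5 (edgeR Padj = 0.362) and -0.57 for P14 versus P1 (edgeR Padj = 0.39). All 3 comparisons with P90 were called (edgeR Padj = 0.000185 against P14, 3.73e-05 against P5 and 3.81e-05 against P1). In the same order, 36.7, 38.3 and 41.2% of the miRNAs tested were lower at P90. The arm passed the filter on low counts only through the younger ages, so the filter favoured a fall at P90. With 2 counts left at P90, the pooled P14 level was 25.5 times that of P90 with TMM (95% exact interval 6.91 to 213).

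In the counts assigned to the miR-133b hairpin the balance of the arms shifted at the last step. MiR-133b-3p was only 0.401 to 0.554% of the counts it shares with miR-133a-3p in the P90 libraries. Whether reads of miR-133a-3p entered the 3p counts used here was not tested. The 5p arm had 64.2 counts in 10000 in newborns (95% exact interval 55.4 to 74.1), 88.3 on day 5 (76.5 to 101) and 71.2 on day 14 (58.7 to 85.5). In adults it had 1.53 (0.185 to 5.51). The log2 ratio of the arms was -7.31 ± 0.44, -6.86 ± 0.78, -7.22 ± 0.61 and -12.31 ± 1.51 at the 4 ages (exact permutation test, p = 0.0112, adjusted p = 0.0112). The P90 mean rests on counts of 0, 2 and 0 plus the pseudocount, and the P90 minus P1 difference of -5.004 became -4.26 with a pseudocount of 1 and -5.88 without P90 replicate 2. For P90 versus P14 the 5p minus 3p difference in log2FC was -5.48, and 3 of the 250 hairpins had a lower value (median -0.07). As the 5p arm passed the filter only through the younger ages, this rank is a description and no support for a change. Unlike miR-133b-3p, the 5p arm was lower at P90 than at P1 under all 5 scalings. The same holds for both arms of miR-206.

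**Figure D4:**
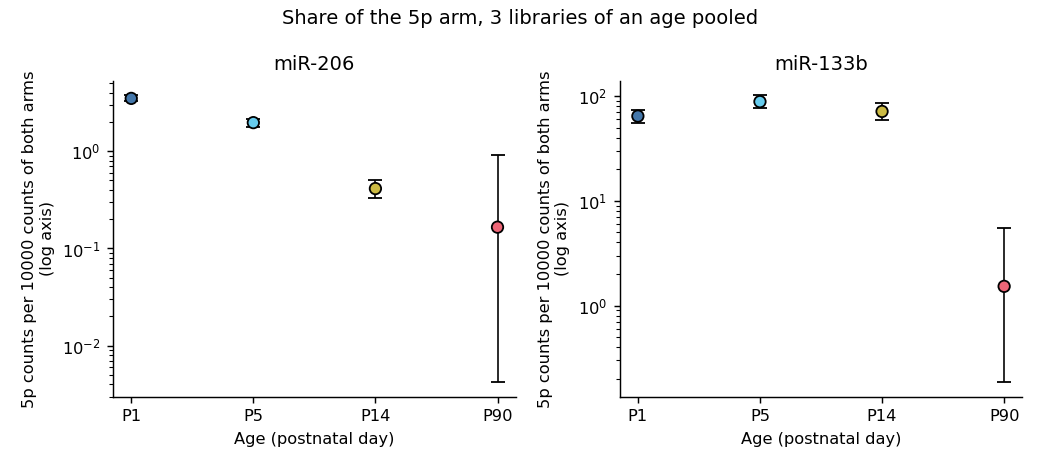
Counts of the 5p arm per 10000 counts of both arms, pooled over the 3 libraries of an age, on log axes. Bars are 95% exact (Clopper-Pearson) intervals and cover counting error only. For miR-206 the share falls from 3.49 to 0.413 between P1 and P14, whereas for miR-133b it stays between 64.2 and 88.3 up to P14 and is 1.53 at P90.

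Next, the miRNAs with the course most like that of each guide were listed, by the Pearson correlation of log2 normalized CPM over the 12 libraries among 204 other miRNAs whose mean reached 100 CPM. The correlations describe 12 libraries in 4 age groups that share depth and scaling within an age. For miR-206-3p the 5 closest were miR-1193-3p (r = 0.994), miR-409-5p (0.994), miR-494-3p (0.994), miR-369-5p (0.994) and miR-539-5p (0.993). All 5 are encoded on chromosome 12 between 109715367 and 109743452 (GRCm38.p6), in the imprinted Dlk1-Dio3 region. This region was common among the candidates, as 63 of the 177 with a RefSeq position (35.6%) lie between Dlk1 and Dio3. Some of the 204 entries had equal correlations with miR-206-3p, for example miR-299a-5p and miR-299b-3p (r = 0.978 for both). Whether such entries count the same reads was not tested. All 63 entries of the region were lower at P90 than at P1 with TMM, and so were 38 of the other 114. MiR-494-3p, for example, had mean levels of 800, 836, 879 and 27.2 CPM in order of age. With library totals in place of TMM these 5 miRNAs ranked 2, 5, 3, 4 and 7 by the same measure.

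For miR-133b-3p the closest courses were less alike, with miR-146b-5p (r = 0.825), miR-196a-5p (0.760), miR-101b-3p (0.745), miR-26b-5p (0.739) and miR-148b-3p (0.737). With library totals they ranked 5, 15, 181, 128 and 24, so this set depended on the scaling. The guides of the locus were not alike by this measure. Their correlation was -0.61 with TMM and 0.89 with library totals, which is why the ratio within libraries was used above.

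**Figure D5:**
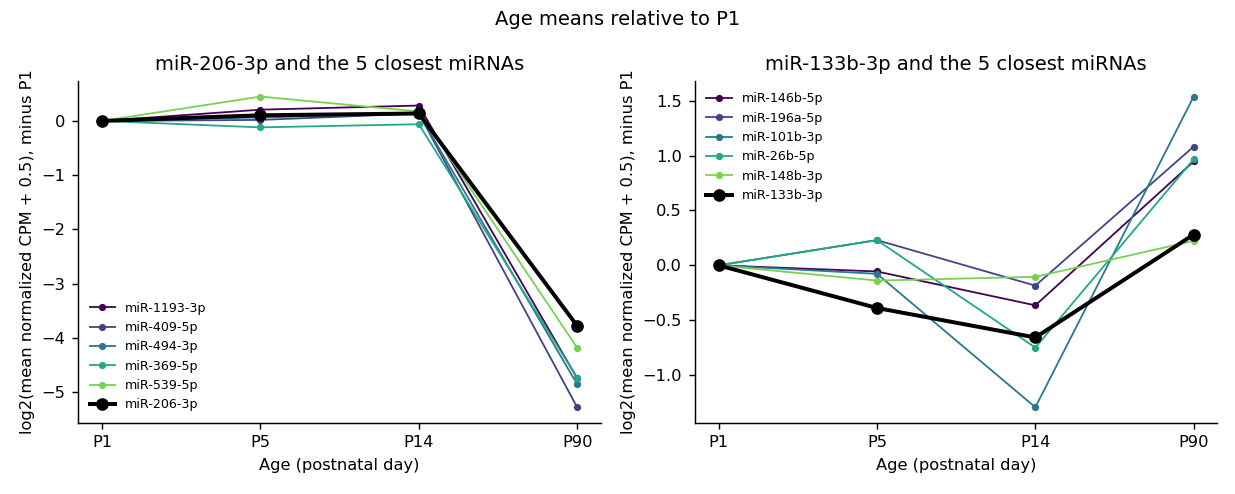
Mean level at each age relative to P1, as log2(normalized CPM + 0.5), for miR-206-3p and miR-133b-3p (thick black lines) and the 5 miRNAs with the highest correlation to each (coloured lines). The miR-206-3p group stays near 0 up to P14 and drops at P90, while miR-133b-3p and 4 of its 5 neighbours are lowest at P14 (miR-148b-3p at P5).

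The other muscle miRNAs were examined as a list of 13 mature forms, of which 11 were tested (miR-208a-3p and miR-208b-5p fell below the filter). For P90 versus P1, 7 were upregulated and 3 downregulated, with a median log2FC of 2.66 compared with -0.72 over all miRNAs tested, of which 25.2% were higher and 41.2% lower. With library totals alone the numbers were 2 and 5. The upregulated ones comprised both arms of miR-133a (log2FC 3.48 for miR-133a-3p and 1.79 for miR-133a-5p), miR-1a-3p (3.44) with miR-1a-1-5p and miR-1a-2-5p (2.82 and 3.09), and miR-486a-5p and miR-486b-5p (2.66 and 2.73). MiR-486a-5p and miR-486b-5p had similar counts (25825 to 26714 and 26149 to 27613 at P1), and whether they count the same reads was not tested. The downregulated ones were miR-499-5p (-3.99), miR-499-3p (at most 1 count in a P90 library and 86 to 210 at P1) and miR-208b-3p (-3.85), which are encoded in introns of myosin heavy chain genes. MiR-499-5p and miR-208b-3p shared the adult decrease of miR-206-3p but not its timing, since they had already dropped to 62.8 ± 13.9 and 1.38 ± 0.65 CPM at P14 from 821 ± 148 and 7.25 ± 2.03 at P1. MiR-208a-5p had a log2FC of -1.45 and did not pass (edgeR Padj = 0.263).

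Markers of other cells of the muscle were quantified as well. For P90 versus P1, all 3 fibroblast markers (miR-199a-3p, miR-199a-5p and miR-214-3p) were downregulated with a median log2FC of -2.81, and their summed level was 11120 to 13500 CPM in newborns, 7903 to 10260 on day 5, 4263 to 5720 on day 14 and 1850 to 2635 in adults. With upper-quartile factors 2 of the 3 were downregulated (median -0.92). In this comparison 41.2% of all miRNAs tested were lower and 25.2% higher at P90 with TMM. Of the satellite cell markers, miR-31-5p was downregulated (-0.88) and miR-489-3p had a log2FC of -1.68 that did not pass, with a summed level of 23.79 to 41.26 CPM at P1 and 14.69 to 17.13 at P90. With upper-quartile factors the median of this pair was 0.59, against -1.28 with TMM. Both endothelial markers (miR-126a-3p and miR-126a-5p, median 1.49) and both smooth muscle markers (miR-143-3p and miR-145a-5p, median 1.85) were upregulated, although all 4 were downregulated with library totals alone. The blood cell list had 2 up- and 2 downregulated members of 5 (median -0.66), and the nerve list had 1 of each among 3 (median 0.49). Both lists depended on the scaling, with 1 up and 4 down in blood cells and 0 up and 3 down in nerve with library totals, and 4 up and 0 down and 2 up and 1 down with upper-quartile factors. The satellite cell sum, which is nearly all miR-31-5p (29.2 CPM at P1, against 0.446 for miR-489-3p), was 23.26 to 33.13 CPM at P14. With TMM, miR-31-5p was not called for P14 versus P1 (-0.15, edgeR Padj = 0.619) but was for P90 versus P14 (-0.73, edgeR Padj = 0.0119). The latter call depended on the scaling. For P90 versus P14, neither satellite cell marker was called with RLE or DESeq2, and 1 was called higher with upper-quartile factors. The part of cell composition in the member values was not tested.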

How the data were processed

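Per the study's methods and the submitters' processing notes, the authors size-selected reads with cutadapt 1.18, used Bowtie2 2.4.1 for alignment to GRCm38 and featureCounts 2.0.1 with miRBase for counting. What the authors deposited are raw counts per mature miRNA, not normalized. Strand and multi-mapping options are not given in the sources used here. The age and number of each library come from its title. Members, lists and tests were chosen with earlier results of these data known.

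Counts were analysed in R 4.3.3 with edgeR 4.0.16. MiRNAs were kept with filterByExpr (809 of 1966) and scaled with TMM. One quasi-likelihood model with a mean per age was fitted to all 12 libraries, and the F-tests received Benjamini-Hochberg adjustment over all miRNAs tested. The fit was tested on simulated data. Ratios within libraries were compared with exact permutation tests (SciPy 1.17.1) on the between-age sum of squares. Shares of a single library had 95% Wilson intervals with a half-width of at most 3.18% of the share for the guides. Intervals cover counting error only, since reads, not molecules, were counted. The methods give 3 mice per time point, without linking each library to a mouse, so P values measure the spread between these libraries.

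Named miRNAs comprise the members, miRNAs sharing a seed with one, the fixed lists of other muscle miRNAs and cell type markers, and for each guide the 5 miRNAs with the highest correlation. Alternatives comprised RLE, upper-quartile and total-count scaling (also without miR-1a-3p and miR-1b-5p), no filter, DESeq2 1.42.0, 2 ages only, a replicate block, removal of a GC trend (85% of the miRNAs tested had a sequence), other pseudocounts and leaving out each library.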

Additional observations from a re-analysis of the deposited data

How the results depend on the processing

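The fall of miR-206-3p, miR-206-5p and miR-133b-5p to P90 and the 5 ratios within libraries kept their direction and their side of the threshold under every alternative run. The exceptions concern miR-133b-3p and the small early changes. With library totals alone, miR-133b-3p turned to -1.34 for P90 versus P14, -1.34 for P90 versus P5 and -2.04 for P90 versus P1. With library totals without miR-1a-3p and miR-1b-5p, miR-133b-3p had -0.20 for P90 versus P1 and did not pass (edgeR Padj = 0.336). For P90 versus P1 it passed the threshold with RLE (0.62), upper-quartile factors (2.14) and DESeq2 (0.59), and also without P5 replicate 2 (0.50) or P90 replicate 2 (0.45), with a range of 0.048 to 0.50 over the libraries left out. For P90 versus P5 it did not pass with library totals without miR-1a-3p and miR-1b-5p (0.31), nor without P90 replicate 3 (0.45), with a range of 0.45 to 0.85. Its P14 versus P1 decrease did not pass with upper-quartile factors (-0.35). MiR-206-3p passed for P14 versus P1 with upper-quartile factors (0.45), and miR-206-5p for P5 versus P1 with those 2 ages only (-0.77). The cause was not tested. When miR-1a-3p and miR-1b-5p were left out of the totals, the share of miR-206-3p was 4.47, 4.41, 4.33 and 0.236% in order of age, and that of miR-133b-3p 0.0600, 0.0421, 0.0335 and 0.0522%.

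Replicate numbers did not pair the libraries. Deviations of same-numbered libraries correlated between -0.0967 and 0.124, 1 of 18 pairs was above 0.1, and a library correlated best with its own number in 8 of 36 cases. The replicate block changed no call on a member (miR-133b-3p for P90 versus P1, 0.24; miR-206-3p, -3.78), while the calls over all miRNAs for P5 versus P1 dropped from 36 to 15. The P90 libraries had the highest totals but only 0 to 2 counts of each 5p arm, so the adult levels of these arms are known only as wide intervals.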
